A study of Mus musculus with 9 samples.

Results

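The 6 genes described here are predicted genes on mouse chromosome 14 that the deposited table names after the bacterial artificial chromosome (BAC) clones that hold them: RP24-218O5.2, RP23-254B9.1, RP23-314N18.4, RP23-304L22.4, RP23-304L22.3 and RP23-9D13.5. They are 6 of the 24624 genes of the table, taken by symbol and chosen by their normalized read counts in these same libraries, in which earlier results had shown them to change alike in both mutant genotypes. Their differences from Fezf2+/+ and their likeness between the mutants are therefore descriptions and support nothing.

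RNA was sequenced from the cerebral cortex of newborn (postnatal day 0, P0) mice, with 1 library per mouse. Fezf2+/+ was represented by 3 libraries (bc201, bc202, bc203), Fezf2-/- by 4 (bc204 to bc207) and Fezf2-/-; Fezf2-EnR by 2 (bc208, bc209). The last group, called the Fezf2-EnR mice below, lacks Fezf2 on both chromosomes and carries in addition a BAC transgene of about 200 kb around Fezf2, in which the DNA-binding domain of FEZF2 is fused to the repressor domain of engrailed. Fezf2 encodes a zinc finger transcription factor required for the subcerebral projection neurons of layer 5, and the transgene served to ask which changes of the null mutant a repressor form of FEZF2 reverses. Litter m1 gave 2 Fezf2+/+ mice (bc201, bc202) and 2 Fezf2-/- mice (bc205, bc206), litter m2 gave 1 Fezf2+/+ mouse (bc203) and 1 Fezf2-EnR mouse (bc209), and litter m3 gave 2 Fezf2-/- mice (bc204, bc207) and 1 Fezf2-EnR mouse (bc208). The strain that carried the Fezf2- allele, the strain of the wild-type chromosome and the sexes of the pups are not given in the sources used here. Both copies of the chromosome region around Fezf2 come with the mutant allele in every mutant mouse, short of recombination, so loss of Fezf2 and sequence linked to the allele cannot be told apart in this design.

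Values are normalized read counts, that is, reads divided by a size factor of the library. Over the genes of the table, the counts of each library summed to between 18716575 and 25127623 reads, and 1 read was worth between 0.831 and 1.09 units. Fezf2 itself, on the same chromosome (chr14:12342094-12348189, minus strand, mm10), had 1232, 1010 and 979 units in Fezf2+/+ and 223, 193, 242 and 209 in Fezf2-/-, as the labels imply, and 907 and 1001 in the Fezf2-EnR mice, where reads of the transgene may count toward it. The 5 markers of cortical glutamatergic neurons summed to between 33890 and 43820 units in each library, and the 3 choroid plexus markers to between 2.19 and 17.9. Of the striatal markers, 4 of the list were in the table, and their sum varied between 899 and 2643 among the Fezf2-/- libraries. Its part in the results was not tested. In bulk tissue, fewer cells that express a gene and less RNA per cell cannot be told apart.

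Current annotation (GENCODE M21, the same build as mm10) lists all 6 genes as protein coding and gives them the names Gm3164, Gm3500, Gm3248, Gm6356, Gm10406 and Gm3512, in the order above. They belong to a large group of near-identical genes near the centromere end of chromosome 14. A relative, 2610042L04Rik, is listed by RefSeq under the synonym takusan. Takusan genes are a rodent family expanded into many copies and are known as regulators of synaptic activity. Copies of such families differ in number and sequence between mouse strains, and short reads from them are hard to assign to 1 copy.

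The members were spread over several megabases. RP24-218O5.2 (ENSMUSG00000091418.2) lies at chr14:4415448-4443839 on the plus strand, and its exons overlap those of Gm3173 on the same strand. The others are on the minus strand. RP23-254B9.1 (ENSMUSG00000096003.7) lies at chr14:5365794-5389049, RP23-314N18.4 (ENSMUSG00000091275.1) at chr14:5939225-5961745, RP23-304L22.4 (ENSMUSG00000091400.1) at chr14:6965449-6973818, RP23-304L22.3 (ENSMUSG00000093985.7) at chr14:7006115-7027449 and RP23-9D13.5 (ENSMUSG00000090363.8) at chr14:7153511-7174533. Their starts are between 5.17 and 7.93 Mb from the start of Fezf2, whereas the BAC transgene is about 200 kb long.

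How alike the copies are can be read from a coding exon of 132 bases that all 6 have. It is exon 5 of 7 in most members, exon 4 of 6 in RP23-9D13.5 and exon 3 of 5 in RP23-304L22.4. The exon is shown 5′ to 3′ on the strand of each gene, as given by the GENCODE transcripts, and capitals mark bases unlike the majority of the 6 members.

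RP24-218O5.2, RP23-304L22.3 and RP23-9D13.5: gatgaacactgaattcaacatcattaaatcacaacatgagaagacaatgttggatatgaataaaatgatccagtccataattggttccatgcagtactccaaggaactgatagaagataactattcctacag
RP23-254B9.1: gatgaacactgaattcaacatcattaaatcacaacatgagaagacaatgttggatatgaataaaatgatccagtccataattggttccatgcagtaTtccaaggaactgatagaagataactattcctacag
RP23-314N18.4: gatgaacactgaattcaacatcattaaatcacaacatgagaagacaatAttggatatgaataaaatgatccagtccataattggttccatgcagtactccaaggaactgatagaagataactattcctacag
RP23-304L22.4: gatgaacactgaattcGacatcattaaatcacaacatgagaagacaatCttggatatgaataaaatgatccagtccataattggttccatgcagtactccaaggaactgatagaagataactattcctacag

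The exon was identical in 3 members, at chr14:4432070-4432201 in RP24-218O5.2, chr14:7010660-7010791 in RP23-304L22.3 and chr14:7158136-7158267 in RP23-9D13.5, and each of them shared it with 31 further annotated genes (the other 2 members among them). Counted from 1 at the 5′ end of the exon, with the base of the shared form first, RP23-254B9.1 (chr14:5371295-5371426) differed by C97T, RP23-314N18.4 (chr14:5943798-5943929) by G49A, and RP23-304L22.4 (chr14:6971709-6971840) by A17G and G49C. The form of RP23-254B9.1 occurred in 4 other genes, whereas the forms of RP23-314N18.4 and RP23-304L22.4 occurred in 0. Those 2 were the only members whose exon was found in no other annotated gene.

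Over whole transcripts the members were between 92.4% and 98.1% identical in pairs. RP23-304L22.4, the member that was lower in the mutants, was 92.4% to 94.9% identical to the rest, which were 92.9% to 98.1% identical to each other. The study read 50 bases from each end of a fragment, so the transcripts were cut into all windows of 50 bases and each window was looked up in every other annotated gene. In RP23-254B9.1, 20 of 1907 windows (1.05%) occurred in no other gene, and 97.3% of its windows also occurred in Gm3373. The share that occurred in no other gene was 8.61% in RP23-9D13.5, 13.2% in RP23-304L22.3 and 20.7% in RP24-218O5.2. It was much higher in RP23-304L22.4 (50.8%, 867 of 1708 windows) and RP23-314N18.4 (51.2%, 1027 of 2006 windows). How reads that match several copies were counted is not given in the sources used here, and the values of all 6 members are uncertain to that extent, least so in those 2.

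**Figure D1:**
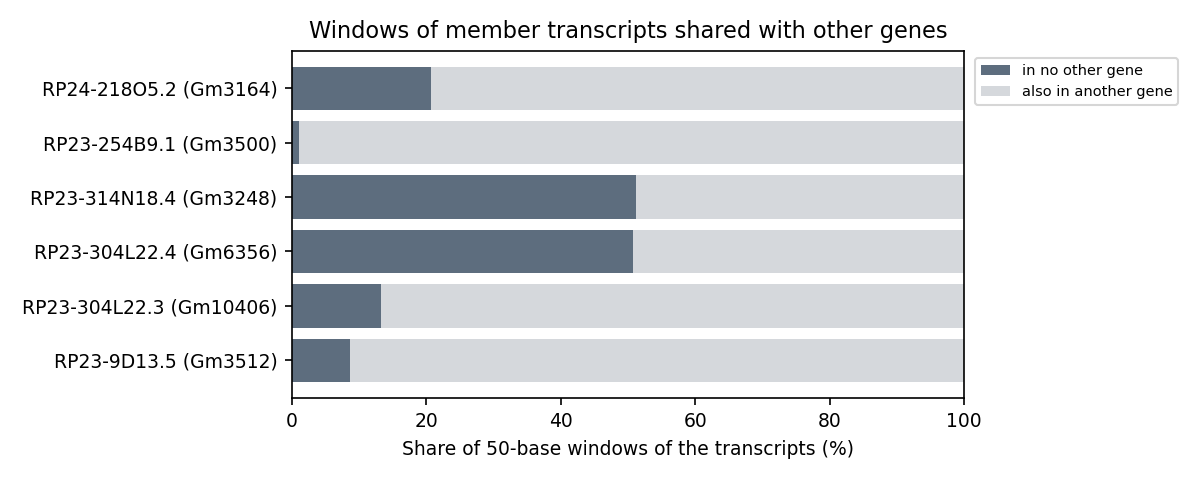
Share of the 50-base windows of each member's transcripts (horizontal axis, percent) that occur in no other annotated gene (dark) or also in another gene (light). RP23-314N18.4 (51.2%) and RP23-304L22.4 (50.8%) have most windows of their own, against 1.05% in RP23-254B9.1.

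RP23-304L22.4 was the member with reads in Fezf2+/+ that vanished from the mutants. It had 65.1, 28.4 and 196 units in Fezf2+/+ (mean 96.5 ± 88.1, SD, n = 3), 0 reads in each of the 4 Fezf2-/- libraries, and 1 and 1.09 units, which is 1 read each, in the Fezf2-EnR mice. The groups did not overlap, and the spread within Fezf2+/+ was wide, with litter m2 highest. Taking 3 reads over the group as the limit that a count of 0 allows, the level in Fezf2+/+ was at least 131-fold higher than in Fezf2-/-, and at least 63.5-fold higher without library bc203. Against the Fezf2-EnR mice the ratio was 90.3 (95% exact binomial interval of 290 against 2 reads, 24.8 to 749), an interval that covers counting error only. Without bc203 it was 46.8 (12.6 to 391). Within litter m2 the Fezf2+/+ mouse had 196 units and the Fezf2-EnR mouse 1.09.

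RP23-314N18.4 had the opposite pattern. All 3 Fezf2+/+ libraries had 0 reads of it, the Fezf2-/- libraries bc204 to bc207 had 17.1, 30.5, 30.2 and 4.98 units (20.7 ± 12.2, SD, n = 4), and the Fezf2-EnR libraries had 27.9 and 16.4 (22.1 ± 8.12, SD, n = 2). Every mutant library was above every Fezf2+/+ library. With the same limit of 3 reads, the level was at least 21.3-fold higher in Fezf2-/- and at least 22.7-fold higher in the Fezf2-EnR mice. RP23-304L22.4 and RP23-314N18.4, the members with most sequence of their own, were thus each at 0 reads in 1 of the genotypes. Such absence was not limited to them. Gm3488 and Gm6337, which share windows with members, also had 0 reads in all 3 Fezf2+/+ libraries. Gm3488 had 8.03 to 15.25 units in Fezf2-/- and 12.94 and 20.76 in the Fezf2-EnR mice. Gm6337 had 3.32 to 6.26 units in Fezf2-/- and 5.97 and 4.37 in the Fezf2-EnR mice. Both were picked after their values were seen and were not tested.

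RP23-254B9.1 had 1.69, 2.10 and 3.16 units in Fezf2+/+ (2.32 ± 0.759, SD, n = 3). In Fezf2-/- it had 67.3, 71.9, 109 and 49 units (74.4 ± 25.4, SD, n = 4), and in the Fezf2-EnR mice 59.7 and 69.9 (64.8 ± 7.21, SD, n = 2). The lowest mutant library stood far above the highest Fezf2+/+ library, and the group means were 32.1-fold and 28-fold higher than in Fezf2+/+, where the level rested on 7 reads in all.

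RP23-304L22.3 had 6.76, 9.47 and 8.43 units in Fezf2+/+ (8.22 ± 1.37, SD, n = 3), 62.3, 90.4, 92.8 and 54.8 in Fezf2-/- (75.1 ± 19.4, SD, n = 4), and 42.8 and 73.2 in the Fezf2-EnR mice (58.0 ± 21.5, SD, n = 2). This gene lies on the same clone as RP23-304L22.4 and differed from Fezf2+/+ in the other direction. Its mean was 9.13-fold higher in Fezf2-/- and 7.06-fold higher in the Fezf2-EnR mice, with no overlap with Fezf2+/+.

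RP24-218O5.2 was steady within Fezf2+/+ (5.07, 5.26 and 5.27 units, 5.20 ± 0.113, SD, n = 3). It had 32.1, 42.5, 50.04 and 31.6 units in Fezf2-/- (39.1 ± 8.88, SD, n = 4), and 29.9 and 38.2 in the Fezf2-EnR mice (34.1 ± 5.92, SD, n = 2). The means were 7.51-fold and 6.55-fold higher than in Fezf2+/+.

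RP23-9D13.5 differed least. It had 22, 9.47 and 13.7 units in Fezf2+/+ (15.05 ± 6.36, SD, n = 3), 59.2, 83.9, 74.0 and 49.8 in Fezf2-/- (66.8 ± 15.2, SD, n = 4), and 62.7 and 67.7 in the Fezf2-EnR mice (65.2 ± 3.55, SD, n = 2). The ratios to Fezf2+/+ were 4.44 and 4.34, and the mutant libraries did not overlap with the Fezf2+/+ libraries.

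**Figure D2:**
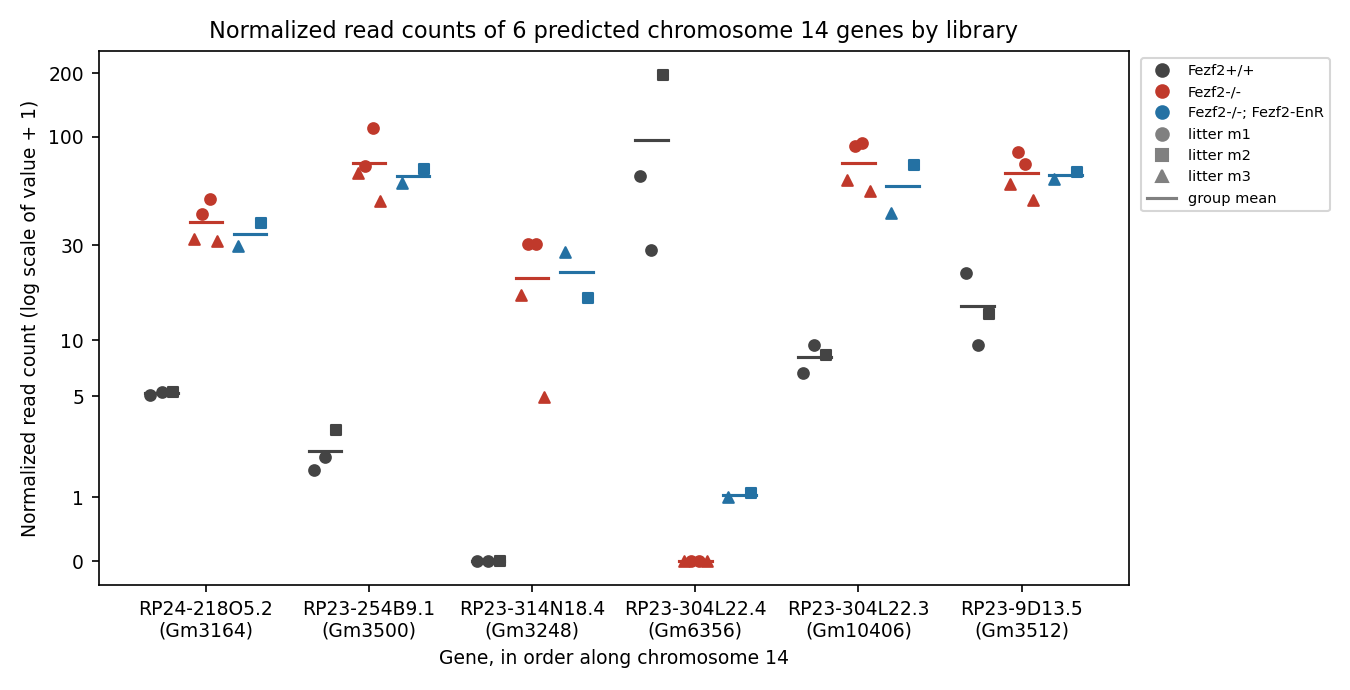
Normalized read counts of the 6 genes (vertical axis, log scale of value + 1) in each library, in order along chromosome 14. Colours mark genotypes, shapes mark litters and bars mark group means. RP23-304L22.4 is present in Fezf2+/+ (28.4 to 196 units) and at 0 or 1 read in the mutants, while the other 5 genes are higher in all mutant libraries than in any Fezf2+/+ library.

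Per kilobase of the longest transcript, RP23-304L22.4 had the highest level of the 6 in Fezf2+/+ (54.9 ± 50.2 units per kb, SD, n = 3), followed by RP23-9D13.5 (8.09), RP23-304L22.3 (4.20), RP24-218O5.2 (2.67), RP23-254B9.1 (1.18) and RP23-314N18.4 (0). In this order the ranges of neighbours over the libraries did not overlap. In Fezf2-/- the order was another. RP23-304L22.3 (38.4 ± 9.90 units per kb, SD, n = 4), RP23-254B9.1 (38.1 ± 13) and RP23-9D13.5 (35.9 ± 8.14) were at the top with overlapping ranges, above RP24-218O5.2 (20.08 ± 4.57) and RP23-314N18.4 (10.1 ± 5.94), with RP23-304L22.4 at 0. The Fezf2-EnR mice had the same 3 genes on top, at 29.7 to 35.1 units per kb. All levels per kb depend on how reads shared between copies were assigned.

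On the log2(value + 1) scale, limma gave log2 fold changes in Fezf2-/- against Fezf2+/+ of 4.47 (SE 0.28, adjusted p = 1.18e-05) for RP23-254B9.1, 4.17 (SE 0.54, adjusted p = 0.00421) for RP23-314N18.4, 3.02 (SE 0.26, adjusted p = 0.000209) for RP23-304L22.3, 2.67 (SE 0.23, adjusted p = 0.000209) for RP24-218O5.2, 2.13 (SE 0.27, adjusted p = 0.00379) for RP23-9D13.5 and -6.18 (SE 0.55, adjusted p = 0.000265) for RP23-304L22.4. All 6 were called at an adjusted p under 0.05, against 0.858% of the 16197 genes tested, and in all 6 the libraries of both genotypes did not overlap, against 13% of genes. In the Fezf2-EnR mice against Fezf2+/+ the log2 fold changes were 4.33, 4.49, 2.64, 2.49, 2.12 and -5.15 in the same order, and all 6 were called with adjusted p between 0.000221 and 0.0413, against 0.117% of all genes, again without overlap, against 34.6%. Nothing is read from these counts, since the genes were chosen for these differences. A mean of at least 10 units was required for the test, and in 5 of the 6 members the mean of at least 1 genotype was under it, so that these could pass only through a genotype where they were high. Both comparisons share the Fezf2+/+ libraries.

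The calls in the Fezf2-EnR mice were the less firm. Only 1 member (RP23-254B9.1) remained called without library bc209, which left that group with 1 mouse, and 2 when only the libraries of both genotypes were fitted. In Fezf2-/-, all 6 were called with any library left out.

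Within litter m1 the Fezf2-/- mice differed from their Fezf2+/+ littermates by ratios of 47.9 for RP23-254B9.1, 11.3 for RP23-304L22.3, 8.96 for RP24-218O5.2 and 5.02 for RP23-9D13.5, larger than over all litters. RP23-314N18.4 was at 30.4 against 0 units there and RP23-304L22.4 at 0 against 46.7. In litter m2, the Fezf2-EnR mouse had 22.1, 8.68, 7.26 and 4.94 times the level of the Fezf2+/+ mouse for the same 4 genes. Litter m3 held both mutant genotypes. There the Fezf2-EnR mouse had 2.53 times the mean of the Fezf2-/- mice for RP23-314N18.4 (27.9 against 11 units), 0.731 times for RP23-304L22.3, between 0.938 and 1.15 times for RP23-254B9.1, RP24-218O5.2 and RP23-9D13.5, and 1 against 0 units of RP23-304L22.4.

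The mutant genotypes were compared directly in the same fit. The log2 difference of the Fezf2-EnR mice from Fezf2-/- was -0.14 for RP23-254B9.1 (95% interval -0.84 to 0.55), -0.38 for RP23-304L22.3 (-1.03 to 0.27), -0.18 for RP24-218O5.2 (-0.74 to 0.39), -0.01 for RP23-9D13.5 (-0.68 to 0.67), 0.31 for RP23-314N18.4 (-1.04 to 1.67) and 1.03 for RP23-304L22.4 (-0.34 to 2.40). The value of RP23-304L22.4 rests on 1 read in each Fezf2-EnR library against 0 reads, and it was 3.52 with a pseudocount of 0.1, 0.14 with a pseudocount of 10 and 0.30 with litter as a block, uncalled in each. None of the 6 was called (adjusted p between 0.416 and 0.994, limma), where 0.766% of all genes were. At an unadjusted p under 0.05 there were 0 of the 6 members and 16.9% of all genes. edgeR and DESeq2 (without independent filtering) on whole reads also called 0. The members were chosen as alike in both mutants, so this too is a description, and a p over the threshold does not show equal levels. The lower bounds of the intervals reach about a 2-fold lower level for RP23-304L22.3 and RP23-314N18.4. Fezf2 itself had a log2 difference of 2.14 between the same libraries.

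Litters of 1 genotype were not used to choose the genes. Among Fezf2-/- mice, the 2 of litter m3 had lower values than the 2 of litter m1 for all 5 members with reads, without overlap. The ratio of m3 to m1 was 0.363 for RP23-314N18.4 (11 against 30.4 units), and between 0.639 and 0.691 for the other 4. None was called (limma, adjusted p between 0.420 and 1), 2 had an unadjusted p under 0.05 (RP23-314N18.4, 0.0136, and RP23-304L22.3, 0.0476), as had 9.85% of all genes, and an exact two-sided permutation test of 2 against 2 gave p = 0.33 for each, the smallest it can give. Of all genes, 0.0309% were called and 23.5% were lower in m3 without overlap. Library bc207 was the lowest of the 4 Fezf2-/- libraries in all 5 members, and it also had the most reads over the genes of the table. Without it, the ratio of m3 to m1 was 0.562 for RP23-314N18.4 (17.1 against 30.4 units) and between 0.68 and 0.75 for the other 4, and without bc204 it was 0.164 for RP23-314N18.4. The 5 members went together over the 9 libraries, with Pearson r from 0.934 to 0.995 on the log2 scale, and over the 4 Fezf2-/- libraries, with r from 0.707 to 0.959. These are descriptions, since the points share genotype, litter and reads between copies.

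The rest of the multi-copy group was examined next. In all, 106 annotated genes shared at least 1 window of 50 bases with a member, all of them on chromosome 14 between 3030002 and 19602581. The table held 66 of these, the 6 members and 60 others, of which 25 passed the filter and were tested. In Fezf2-/- against Fezf2+/+, 7 of the 25 were called, all higher (Gm3020, Gm3194, Gm3373, Gm3468, Gm3591, Gm3636 and Gm2237), with log2 fold changes between 1.56 and 2.74. In 5 of the 7, all but Gm3020 and Gm2237, the mean in Fezf2+/+ was under the filter of 10 units, so that these entered the test only through mutant libraries, and the count is not set against the 0.858% over all genes. The lowest was RP24-243P7.3 (Gm3239), at 44.8, 22.1 and 36.9 units in Fezf2+/+ and 7.48 to 13.6 in Fezf2-/- (log2 fold change -1.48, adjusted p = 0.0559), chosen after its values were seen. The takusan gene 2610042L04Rik (RP23-227N11.1) had means of 20.7 units in Fezf2+/+ and 37.3 in Fezf2-/- and was not called (adjusted p = 0.252). The count of 7 fell to 3 without library bc201 and to 4 without bc205 or bc206.

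In the Fezf2-EnR mice, 1 of the 25 relatives was called against Fezf2+/+ (RP24-547N23.2), and 0 were called against Fezf2-/-. With 2 libraries in this group against 4, fewer calls do not show a return toward Fezf2+/+. The median log2 fold change of the 25 against Fezf2+/+ was 0.871 in the Fezf2-EnR mice and 0.823 in Fezf2-/-. Of the 25, 22 and 20 were higher than in Fezf2+/+. Because of the filter, these counts too are not set against shares over all genes. Between litters, 23 of the 25 were lower in m3 than in m1 among Fezf2-/- mice without overlap, against 23.5% of all genes, with a median log2 difference of -0.70 and 0 called. Since relatives share windows with members, their values are not independent of the members'.

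The summed level of the 60 relatives was 683 to 973 units in Fezf2+/+, 1071 to 2115 in Fezf2-/- and 1640 to 1660 in the Fezf2-EnR mice, with no overlap between Fezf2+/+ and the mutants. The 5 members that were higher in the mutants summed to 26.3 to 35.5 units in Fezf2+/+, 190 to 357 in Fezf2-/- and 223 to 266 in the Fezf2-EnR mice. All 6 members made up 7.42% to 18.9% of the whole group in Fezf2+/+, 13.6% to 15.1% in Fezf2-/- and 11.9% to 13.98% in the Fezf2-EnR mice, so the share of the members overlapped between genotypes while its make-up changed from RP23-304L22.4 to the others. The number of the 66 genes with 0 reads was 14 to 19 in Fezf2+/+ libraries, 2 to 9 in Fezf2-/- and 3 to 5 in the Fezf2-EnR mice.

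**Figure D3:**
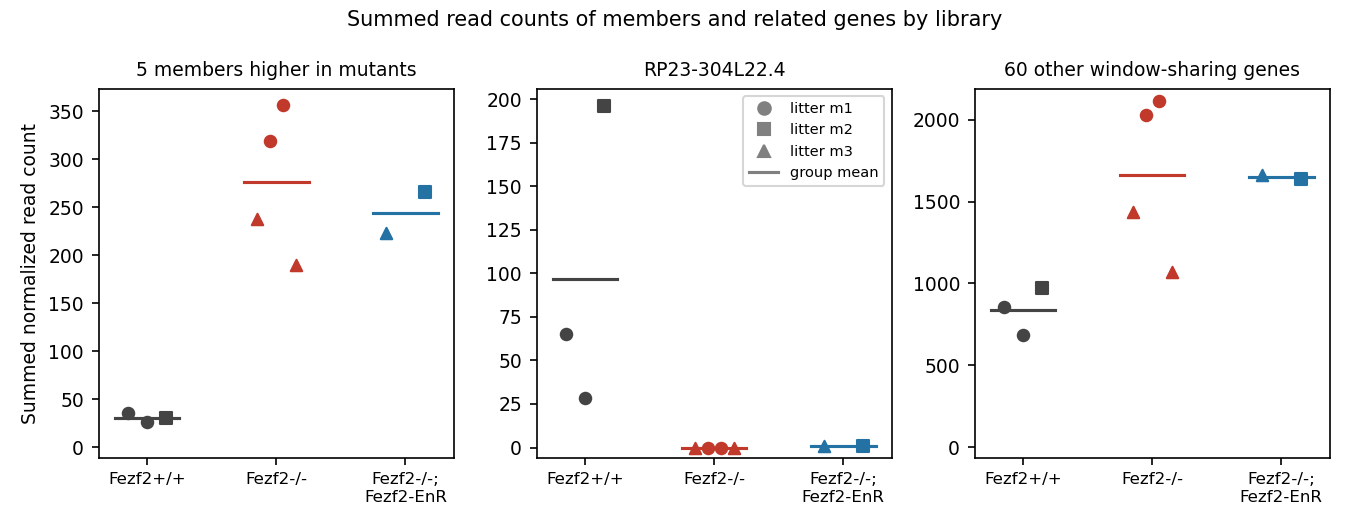
Summed normalized read counts (vertical axis, units) in each library of the 5 members that were higher in mutants, of RP23-304L22.4, and of the 60 other genes that share a 50-base window with a member. Shapes mark litters and bars mark group means. The relatives lie at 683 to 973 units in Fezf2+/+ and at 1071 to 2115 in Fezf2-/-, with litter m3 below litter m1.

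Neighbours named after the same clones did not all follow the members. RP23-304L22.1 (Gm3696), on the clone of RP23-304L22.3 and RP23-304L22.4, had means of 43.7 units in Fezf2+/+, 39.7 in Fezf2-/- and 43.8 in the Fezf2-EnR mice (adjusted p = 0.815 in Fezf2-/-). RP23-314N18.1 (Gm8206) had 24.4 units in Fezf2+/+ and 50.4 in Fezf2-/- (log2 fold change 0.97, adjusted p = 0.129). The other 6 genes of these clones were below the filter. Among them RP24-218O5.5 (Gm3173), which overlaps RP24-218O5.2, had 0.913 units in Fezf2+/+ and 8.41 in Fezf2-/-, while RP23-314N18.3 (Gm17048), a processed pseudogene inside the span of RP23-314N18.4 on the other strand, had 5.41 and 5.38. RP23-314N18.2 (Gm3453), RP23-9D13.2 (Gm3715), RP23-9D13.3 (Gm5456) and RP23-9D13.4 (Gm16434) had means of at most 4.90 units in either genotype. Over all clone-named genes of chromosomes other than 14, 9 of 2212 tested (0.407%) were called in Fezf2-/-, under the share over all genes. In the Fezf2-EnR mice against Fezf2+/+, 6 of the 2212 (0.271%) were called, above the 0.117% of all genes. Of all genes on chromosomes other than 14, 8 of 15606 (0.0513%) were called there.

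On chromosome 14 as a whole, 21 of 591 tested genes (3.55%) were called in Fezf2-/- against Fezf2+/+, the 6 members among them, compared with 118 of 15606 (0.756%) on the other chromosomes. That share includes the members, which were chosen for this difference, and their relatives. Among the chromosome 14 genes that share no window with a member it was 8 of 560 (1.43%), next to 1.44% on chromosome 3 and 1.4% on chromosome 6. Without library bc201, 12 genes of the whole chromosome were called, against 21 with it. Of the 21, 20 had their start within 10 Mb of the start of Fezf2, the exception being Kctd12. The calls were 4 of 32 tested genes (12.5%) under 5 Mb, 16 of 66 (24.2%) from 5 to 10 Mb, 0 of 71 from 10 to 20 Mb, 0 of 95 from 20 to 40 Mb and 1 of 327 beyond. With all 31 window-sharing genes left out, they were 4 of 30, 3 of 37, 0, 0 and 1. Fezf2 itself, the mutated gene, is among the 4 called under 5 Mb. It is thus also among the 21, the 20 within 10 Mb and the 8 of 560, and its call follows from the design. The members made up 6 of the 16 between 5 and 10 Mb. In the Fezf2-EnR mice against Fezf2+/+, 11 of the 19 genes called in all lay on chromosome 14, the 6 chosen members among them. That was 1.86% of its tested genes, and 5 of 585 (0.855%) without the members, against 0.0513% on the other chromosomes. Among the chromosome 14 genes that share no window with a member it was 4 of 560 (0.714%). RP24-315N18.1 and RP23-71L21.2, within 200 kb of Fezf2, were among the 5 and among the 4. In both mutants, 9 genes of the chromosome were called in the same direction, which are the 6 members and 3 others. RP24-547N23.2 (Gm3020), a relative, had means of 74.1, 322 and 350 units in Fezf2+/+, Fezf2-/- and the Fezf2-EnR mice. Samd8, which encodes a sphingomyelin synthase-related protein and shares no window with the members, had 2424, 3559 and 3579 units, 9.40 Mb from Fezf2. RP24-315N18.1 (3830406C13Rik) starts 0.064 Mb from Fezf2. The ends of the BAC are not given in the sources used here, so whether it holds this gene is not known. With 2 libraries in the Fezf2-EnR group, a gene not called there need not have returned toward Fezf2+/+. Pdhb was called in Fezf2-/- only, with log2 fold changes against Fezf2+/+ of -0.328 there and -0.333 in the Fezf2-EnR mice. Kctd12, also uncalled in the latter, had -0.674 and 0.157.

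**Figure D4:**
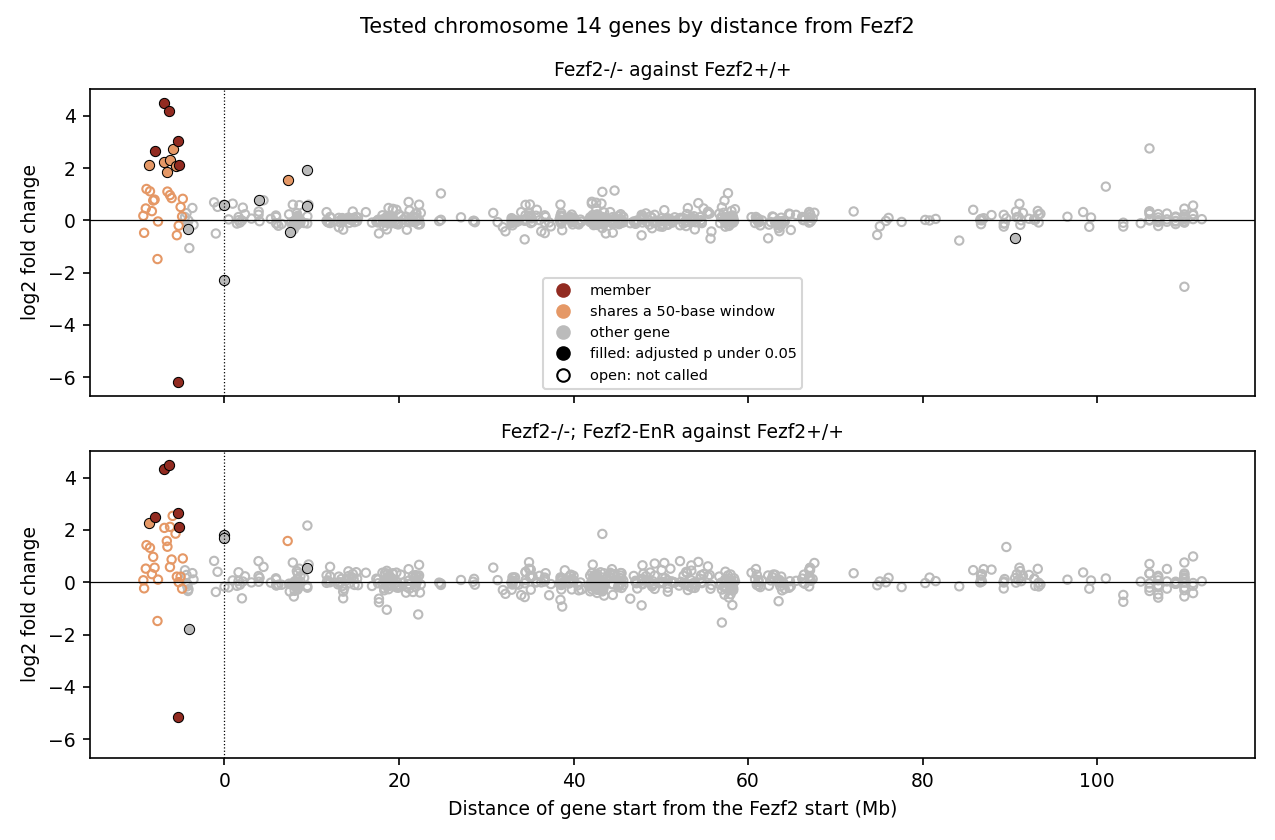
Log2 fold change (vertical axis) of all tested chromosome 14 genes against the distance of their start from the start of Fezf2 (horizontal axis, Mb) in Fezf2-/- (top) and Fezf2-/-; Fezf2-EnR (bottom) against Fezf2+/+. Filled points have a limma adjusted p under 0.05. The members stand 5.17 to 7.93 Mb from Fezf2 on 1 side among their relatives, and beyond 10 Mb 1 gene is called in Fezf2-/- (Kctd12).

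Genes within 200 kb of Fezf2 were also examined. RP24-315N18.1 had 432 to 478 units in Fezf2+/+, 634 to 739 in Fezf2-/- and 1465 and 1466 in the Fezf2-EnR mice, and there it rose above Fezf2-/- (log2 difference 1.10, limma adjusted p = 9.64e-05). RP23-71L21.2 (Gm49355), which overlaps it, had means of 92.5, 141 and 328 units (log2 difference from Fezf2-/- 1.22, adjusted p = 0.00299), and RP23-71L21.1 (D030051J21Rik) had 1.68, 7.20 and 14.6. Ptprg, a receptor tyrosine phosphatase gene, had 1689, 2460 and 2266 units and Cadps, a regulator of vesicle exocytosis, 2966, 3044 and 2609, and neither was called in any comparison of genotypes. RP23-71L21.7 (Gm48239), annotated as antisense, had 0 reads in all 3 Fezf2+/+ libraries, 3.01, 5.45, 3.13 and 9.14 units in Fezf2-/- and 1.99 and 7.65 in the Fezf2-EnR mice, without overlap with Fezf2+/+, as RP23-314N18.4 had. It was below the filter and was not tested. RP23-71L21.6 (Gm48267) had at most 4.37 units in any library.

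Genes elsewhere in the genome had the pattern of the members over the 9 libraries. With the mean standardized profile of the 5 higher members, the highest Pearson r among all other tested genes were 0.988 for RP23-275G21.1 (Gm10020, chromosome 15), 0.987 for RP23-398K14.7 (Gm10704, chromosome 3), 0.986 for RP23-348P7.2 (Gm8420, chromosome 1), and 0.986 and 0.985 for the relatives Gm3194 and Gm3636 on chromosome 14. The means of RP23-348P7.2 were 1.26 units in Fezf2+/+, 38.7 in Fezf2-/- and 44.4 in the Fezf2-EnR mice. For RP23-304L22.4 they were RP23-180N22.1 (Gm10224, chromosome 6, r = 0.974), Thyn1 (0.971), Ppm1g (0.949), Aldh1b1 (0.946) and Ino80b (0.945), none of which shares a window with a member. RP23-180N22.1 had 89.1 units in Fezf2+/+, 49.0 in Fezf2-/- and 51.7 in the Fezf2-EnR mice, far from the near absence of RP23-304L22.4. These genes were picked for likeness over the same 9 libraries, so r is a description.

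RefSeq (GRCm38.p6) lists promoters for 4 of the 6 members. In the 250 bases before the start, read on both strands, TATAAA and CCAAT occurred in 0 of the 4 (12.4% and 33.8% of 32851 promoters) and GGGCGG, the only motif found, in 3 of 4, all but RP23-9D13.5 (32.7% of all promoters). RP23-9D13.5 has 7 listed starts and RP23-314N18.4 has 2, and only the start nearest the GENCODE start was searched. Their other starts were not examined. RP23-304L22.4 and RP24-218O5.2 were not matched.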

How the data were processed

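P0 cortices were sequenced as polyA libraries with paired reads of 50 bases. Per the labels, the submitters' processing notes name Bowtie, STAR, DESeq and mm10, and the counting tool, the annotation, the use of strand and the treatment of reads with several matches are not given in the sources used here. The values the authors deposited are a normalized signal, read counts divided by a size factor of each library, for 24624 genes, of which 24595 matched GENCODE M21 by identifier. Whole reads were recovered in all 9 libraries: from 20 to 200 units, 100% of values equalled a whole number of reads to within 0.011 units. Because the table holds normalized values, log2(value + 1) was tested with limma 3.58.1 (R 4.3.3, lmFit, eBayes with a trend, 1 coefficient per genotype, all libraries fitted together) for 16197 genes whose mean reached 10 units. Adjusted p is by Benjamini-Hochberg over these genes, and genes under 0.05 were called. The log2 scale with a pseudocount of 1 understates changes of low genes. For the litters, Fezf2-/- was divided into m1 and m3 in the fit.

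The members and lists were chosen with earlier results of these data known. Genes named are the members, Fezf2, and genes of the same clones or within 200 kb of Fezf2. Also named are chromosome 14 genes called alike in both mutants, and the 5 genes most like the higher members and the lower member. Pdhb and Kctd12 are named as examples of chromosome 14 genes called in Fezf2-/- only, picked after their values were seen. Some window-sharing relatives are named as well, among them Gm3488 and Gm6337, picked after their values were seen. The list of window-sharing genes came from GENCODE M21 transcripts. A search of the genome outside annotated transcripts was not made. Identity was computed after alignment with MAFFT 7.526. Intervals from counts cover counting error only, since PCR copies are not independent molecules. On simulated data for Fezf2-/- against Fezf2+/+ with 200 of 16197 genes changed, 92.0% of 2-fold and 99.0% of 4-fold changes were called, and 5.45% of called genes were unchanged. Whether these rates hold for the members and their relatives was not tested. Of the 25 tested relatives, 7 were called in Fezf2-/- against Fezf2+/+. Others with more than a 2-fold rise were not called. Examples, picked after their values were seen, are RP23-401J21.2 (log2 fold change 1.20, limma adjusted p = 0.139) and RP23-97D14.7 (1.10, limma adjusted p = 0.146). Replicates are separate mice. Alternatives were pseudocounts of 0.1 and 10, other filters, TMM and median-ratio rescaling, fewer groups, litter as a block or litter m1 alone, each library left out, and edgeR 4.0.16 and DESeq2 1.42.0 on whole reads. DESeq2 without independent filtering, the counts of window-sharing genes, and the bounds and litter ratios without a library were added after the data were seen. Tables were made with Python 3.11.15, pandas 2.3.3 and SciPy 1.17.1.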

Additional observations from a re-analysis of the deposited data

How the results depend on the processing

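In Fezf2-/- against Fezf2+/+, 5 or 6 of the 6 members were called under every alternative run. RP23-314N18.4 missed the threshold with a pseudocount of 10 (adjusted p = 0.0592) and in edgeR (0.0559). The chromosome 14 genes called were 36 in litter m1 alone and 36 in DESeq2 with and without independent filtering, against 21, and 12 to 23 with a library left out, lowest without bc201. Clone-named genes called were 15 to 25 with a library left out, lowest without bc201 and 16 without bc206, against 25. Of the window-sharing relatives, 11 were called with a mean of at least 1 or with no filter on low values and 12 in litter m1 alone, against 7, and 3 to 7 with a library left out. In Fezf2-/-; Fezf2-EnR against Fezf2+/+, where 6 members were called, 2 were called when only both genotypes were fitted, 3 in edgeR and 1 to 6 with a library left out. DESeq2 gave the members no adjusted p there or against Fezf2-/- because of its independent filtering. Without that filtering it called all 6. In Fezf2-/-; Fezf2-EnR against Fezf2-/-, 0 members were called under every alternative that gave a value. Uncalled differences changed sign for RP23-9D13.5 with litter as a block (0.0895), and with a library left out the log2 differences ran from -0.32 to 0.0611 for RP23-254B9.1, from -0.76 to 0.00051 for RP23-304L22.3, from -0.22 to 0.68 for RP23-314N18.4 and from -0.14 to 0.11 for RP23-9D13.5. The cause of these changes was not tested, and some of the fits held fewer libraries. Where a group was left with 1 library, that library is assumed to vary like the other groups. The library numbers are unique to each mouse and pair nothing, and litter, which links genotypes in pairs, was fitted as a block: 6, 6 and 0 members were then called in Fezf2-/- against Fezf2+/+, in Fezf2-/-; Fezf2-EnR against Fezf2+/+ and between the mutants, as without it. At this depth, genes with a few reads carry a large counting error.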
